A study of Canis lupus familiaris with 15 samples.

Results

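The genes described here carry out DNA replication during S phase. They were named as 47 symbols: the origin recognition complex, licensing factors, the MCM helicase and its activators, the sliding clamp and its loader, the replicative polymerases and primase, single-strand binding proteins, flap processing, nucleotide supply and chromatin assembly. Members were taken by symbol, from a list made with earlier results of these data known. Of several probe sets for a gene, the one brightest on average over 15 arrays (on the log2 scale) was used. Of the 47 symbols, 46 had an annotated probe set (LIG1 was not analysed here) and 45 were measured, among 10286 genes measured in all. A gene counted as measured when its log2 intensity reached 4 on at least 3 of the 15 arrays. GINS3, a helicase activation subunit, stayed under that level, with group means of 2.91 (Control), 2.96 (HGF), 2.88 (HGF + PD) and 3.07 (HGF + UO). All 45 measured genes were at or above the level on every array, so none was kept only because 1 group was high.

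The RNA was that of MDCK cells (Madin-Darby canine kidney), a long-established epithelial line that grows as a polarised sheet on a porous filter. The cells had spent 7 days on a Transwell filter in MEM with serum and fell into 4 groups. Control cells (4 arrays) had medium only. HGF cells (4 arrays) had hepatocyte growth factor, the ligand of the Met receptor, at 100 ng/ml for 24 hours. HGF + PD cells (4 arrays) had the same HGF with a compound that the labels spell PD09859, at 50 uM, and HGF + UO cells (3 arrays) had the same HGF with UO126 at 10 uM. Both compounds are named in the title of the series as MAPK inhibitors, and compound and dose differed together between these groups. Cells given a compound without HGF were not analysed here, and the labels name no vehicle. Arrays of a group are labelled as biological replicates, but separate cultures are not stated, so a p-value here reflects array-to-array spread that may be technical. In such bulk RNA, fewer cells in S phase and less RNA of a gene per cell cannot be told apart.

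A replication origin is marked by the origin recognition complex. In G1, CDC6 and CDT1 load the MCM helicase there, and geminin (GMNN) blocks reloading once S phase has begun. The helicase fires when CDC45 and the GINS complex join it, after which polymerase alpha with primase starts each strand and polymerases delta and epsilon extend it on the PCNA clamp. Many of these genes are transcribed by E2F factors as cells leave quiescence, and growth factors acting through the MAPK pathway are a known trigger of that step in epithelium.

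The arrays were alike in brightness, with median intensities from 40.4 to 42.6. The 7 kidney epithelium markers measured (CDH1, EPCAM, KRT8, KRT18, CDH16, PAX8 and OCLN) were above the filter level in every group, and their summed intensity ran from 1.06e+05 to 1.16e+05 in Control, 7.55e+04 to 9.19e+04 with HGF, 7.59e+04 to 9.65e+04 with HGF + PD and 8.19e+04 to 9.00e+04 with HGF + UO. That sum is mostly EPCAM, KRT8 and KRT18: with HGF 5 of the 7 markers fell, among them CDH16 by 3.00 and PAX8 by 1.57, and CDH1 rose by 0.60. Of 8 fibroblast markers 4 were measured, with COL1A1, COL1A2, DCN and LUM under the filter, and their sums lay between 266.0 and 317.0 over all groups. Of 5 endothelial markers 3 were measured, with TEK and VWF under the filter, and their sums lay between 417.0 and 518.0. The leukocyte list had 2 of 4 annotated genes measured (CD68 and CD3E), with PTPRC and CSF1R under the filter, and its sum was 99.7 to 104.0 in Control, 113.0 to 363.0 with HGF, 89.9 to 93.2 with HGF + PD and 93.5 to 101.0 with HGF + UO. CD68 made up most of that difference, with a mean log2 intensity of 3.25 in Control and 6.28 with HGF. The 3′ over 5′ ratio of the actin control probe sets, a measure of RNA integrity and labelling, was 2.38 ± 0.01 on the log2 scale in Control (SD, n = 4), 1.67 ± 0.03 with HGF (n = 4), 2.32 ± 0.04 with HGF + PD (n = 4) and 2.39 ± 0.02 with HGF + UO (n = 3). The matching GAPDH ratio was 1.13 ± 0.04, 1.06 ± 0.04, 1.08 ± 0.03 and 1.25 ± 0.02. The actin ratio was therefore lowest on the 4 HGF arrays, which enter every comparison with HGF below, and its part in those results was not tested.

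HGF raised nearly the whole replication set. Of 45 measured genes, 39 rose and 4 fell at an adjusted p under 0.05 (limma, adjusted over 24904 probe sets), and RFC1 and PRIM1 did not pass. Over all probe sets, 26.3% rose and 29.2% fell in the same comparison. The median change of the replication genes was 0.88 on the log2 scale, against -0.02 over all probe sets kept. For 36 of the genes every HGF array lay above every Control array, and for 3 every HGF array lay below. Over all 24904 probe sets kept, 6098 lay above in this way and 6773 below. Against a minimum change of 1.5-fold (limma treat), 24 passed higher and 1 lower, where 8.65% of all probe sets passed higher and 8.35% lower.

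**Figure D1:**
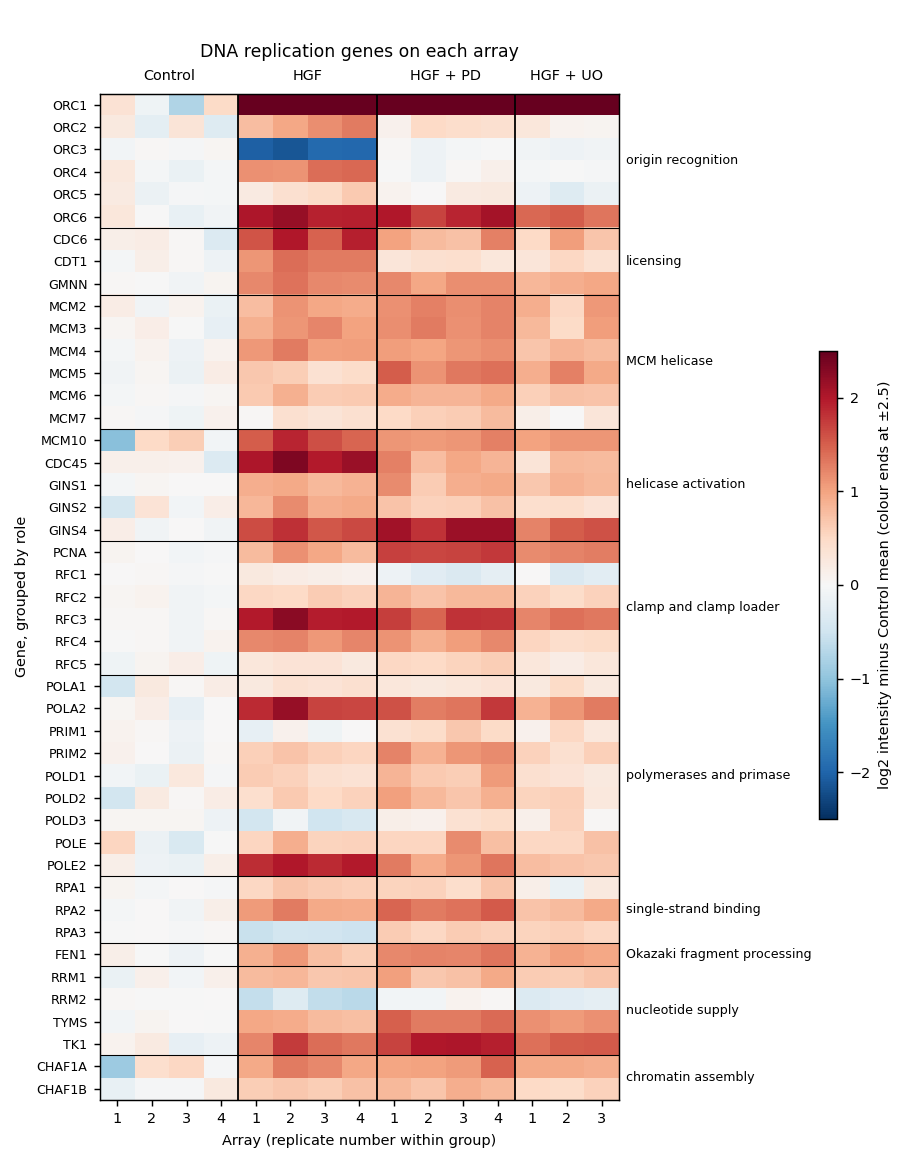
Heat map of 45 replication genes (rows, grouped by role) on 15 arrays (columns, by group), coloured by the log2 intensity minus the mean of the 4 Control arrays, with the colour scale ending at 2.5 each way. Most rows are red on all 11 HGF-treated arrays, while ORC3 is clearly blue on the 4 HGF arrays, where RRM2 and RPA3 are pale blue.

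Array by array, the median deviation of the 45 genes from their Control means was between -0.03 and 0.03 on the Control arrays. It was 0.80, 0.96, 0.81 and 0.80 on the HGF arrays, 1.02, 0.79, 0.91 and 0.95 with HGF + PD, and 0.58, 0.58 and 0.69 with HGF + UO. The replication set as a whole thus stood above Control on each of the 11 arrays that had HGF, whichever compound was present. The 3 HGF + UO arrays were all under the lowest HGF array, and the HGF + PD arrays overlapped the HGF arrays.

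The origin recognition complex split most widely within a single complex. Of its 6 subunits, 5 rose with HGF and ORC3 fell. ORC1, the subunit that varies through the cell cycle, read 5.61, 5.13, 4.50 and 5.73 in Control, 9.33, 9.53, 9.04 and 9.26 with HGF, 8.86, 8.42, 8.55 and 8.96 with HGF + PD, and 8.17, 7.83 and 8.07 with HGF + UO. No treated array came near a Control array, and the HGF + UO arrays were the lowest of the treated ones. The rise with HGF was 4.05 ± 0.22 (SE; 16.5-fold, adjusted p = 1.22e-09), the widest change among the 45 genes. ORC1 fell by 1.26 ± 0.24 from HGF when UO was added (adjusted p = 4.14e-04). When PD was added it fell by 0.59 ± 0.22 (adjusted p = 0.0346), a call that was lost without HGF replicate 1 (-0.58), 2 (-0.51) or 4 (-0.60) and without HGF + PD replicate 2 (-0.50) or 3 (-0.55). Dimmer ORC1 probe sets fell with PD by 0.62 (adjusted p = 0.0128) and 1.34 (adjusted p = 1.06e-05), and rose with HGF by 2.69 and 2.86. ORC1 was near the low end of the scale in Control, where the values depend most on the background correction.

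ORC3, a core subunit present through the cell cycle, moved the opposite way. Its log2 intensity was 13.10, 13.20, 13.14 and 13.21 in Control, and 11.12, 11.03, 11.22 and 11.19 with HGF. It was 13.19, 13.03, 13.12 and 13.15 with HGF + PD, and 13.07, 13.04 and 13.07 with HGF + UO. The HGF arrays stood alone, far below the other 11. ORC3 fell by 2.02 ± 0.05 with HGF (4.05-fold lower, adjusted p = 1.97e-13) and stood 1.98 ± 0.05 above HGF with PD and 1.92 ± 0.05 above it with UO (adjusted p = 2.50e-13 and 7.90e-13). With either compound it was within 0.10 of Control: the difference was -0.04 (95% interval -0.14 to 0.06) with PD and -0.10 (-0.21 to 0.00) with UO. The same pattern was read by dimmer ORC3 probe sets, which fell by 2.05 and 2.17 with HGF.

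ORC4, another subunit of the complex, was the mirror image of ORC3 in direction. It read 9.34, 9.03, 8.92 and 9.04 in Control and 10.22, 10.21, 10.47 and 10.52 with HGF. With HGF + PD it read 9.07, 8.95, 9.12 and 9.20, and with HGF + UO 9.04, 9.07 and 9.06. Every HGF array was above every other array, and both compound groups lay within the Control range. The change was 1.27 ± 0.09 with HGF (adjusted p = 3.14e-08), then -1.27 ± 0.09 with PD and -1.30 ± 0.10 with UO against HGF (adjusted p = 3.16e-08 and 6.93e-08). Dimmer ORC4 probe sets rose by 1.09 and 1.15 with HGF and fell by 1.06 to 1.17 with the compounds.

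The other 3 subunits followed in part. ORC2 rose by 1.04 ± 0.15 with HGF and ORC5 by 0.44 ± 0.10. Against HGF, ORC2 fell by 0.68 with PD and 0.90 with UO, and ORC5 by 0.30 and 0.64. Neither differed from Control past the threshold with either compound. ORC6, which bridges the complex to the helicase, rose by 2.01 ± 0.10 with HGF and was still 1.91 above Control with PD and 1.42 with UO. Against HGF alone ORC6 was lower with UO (-0.59, adjusted p = 4.59e-04) and read -0.10 with PD (adjusted p = 0.434), where a slightly dimmer probe set gave -0.32 (adjusted p = 0.0161). Against Control, 2 of the 6 subunits (ORC1 and ORC6) passed in each compound group, both higher. Over all probe sets, 20.2% were higher with PD and 11.9% with UO.

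**Figure D2:**
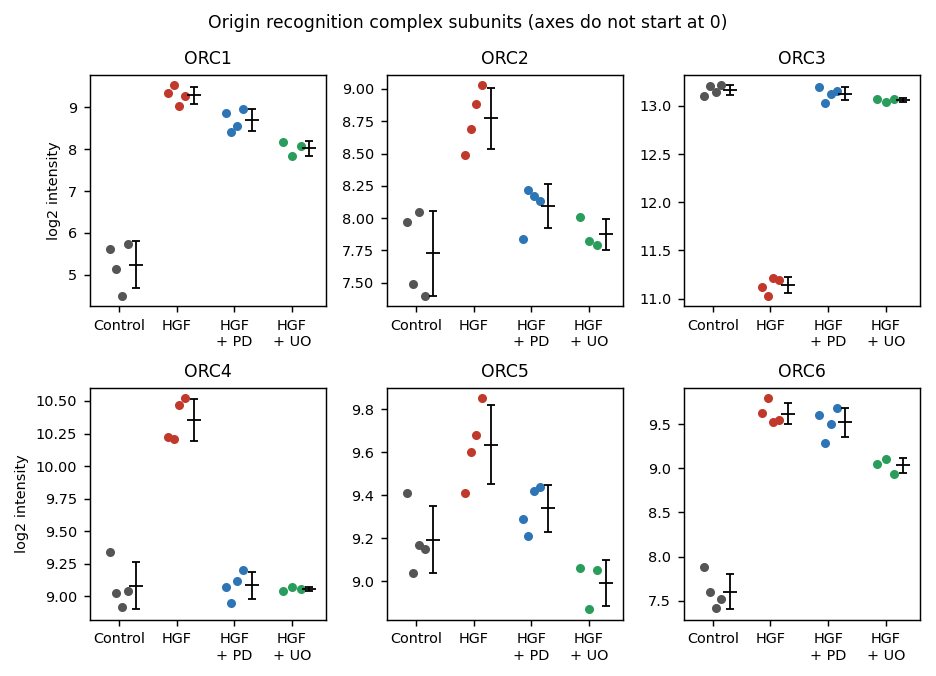
Log2 intensity of the 6 origin recognition complex subunits on each of 15 arrays (points) by group, with the group mean and SD (black). The HGF arrays of ORC3 sit near 11.14 against 13.16 in Control, those of ORC4 near 10.35 against 9.08, and both genes are back at the Control level in the 2 compound groups.

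All 3 licensing factors rose with HGF, and then 2 fell with PD and 3 with UO. Over all probe sets, 26.3% rose with HGF, and against HGF 25.1% were lower with PD and 25.2% with UO. CDT1, the loader that is destroyed once S phase begins, read 8.49, 8.69, 8.57 and 8.42 in Control, 9.65, 9.94, 9.85 and 9.85 with HGF, 8.85, 8.94, 8.96 and 8.83 with HGF + PD, and 8.84, 9.06 and 8.93 with HGF + UO. The HGF arrays stood apart at the top, and the compound groups overlapped each other just above Control. CDT1 rose by 1.28 ± 0.07 with HGF (adjusted p = 2.35e-09) and fell by 0.93 ± 0.07 with PD and 0.88 ± 0.08 with UO (adjusted p = 7.16e-08 and 3.55e-07). A dimmer CDT1 probe set moved further, by 3.04 with HGF, -1.64 with PD and -2.43 with UO.

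GMNN, the inhibitor of CDT1, stayed high under the compounds. It read 9.53, 9.50, 9.43 and 9.58 in Control, 10.71, 10.86, 10.72 and 10.70 with HGF, 10.72, 10.47, 10.67 and 10.67 with HGF + PD, and 10.34, 10.41 and 10.47 with HGF + UO. All treated arrays were far above Control. GMNN rose by 1.24 ± 0.06 with HGF (adjusted p = 4.21e-10), differed from HGF by -0.12 with PD (adjusted p = 0.128) and fell by 0.34 with UO (adjusted p = 5.26e-04). A dimmer GMNN probe set gave the reverse calls, -0.27 with PD (adjusted p = 0.0242) and -0.14 with UO (adjusted p = 0.265), so which compound lowered GMNN depends on the probe set. CDC6, the ATPase that recruits CDT1 and the helicase, rose by 1.76 ± 0.16 and then fell by 0.81 with PD and 1.00 with UO. Its dimmer probe sets rose by 4.90 and 4.81 from Control means of 3.84 and 3.77, close to the filter level.

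All 6 subunits of the MCM2 to MCM7 helicase rose with HGF, by 0.29 to 1.11. MCM4 read 10.66, 10.80, 10.58 and 10.80 in Control, 11.80, 12.00, 11.73 and 11.75 with HGF, 11.75, 11.69, 11.81 and 11.87 with HGF + PD, and 11.40, 11.56 and 11.51 with HGF + UO. The HGF and HGF + PD arrays overlapped fully, and the HGF + UO arrays lay below both but well above Control. MCM4 rose by 1.11 ± 0.07 with HGF (adjusted p = 4.70e-09), read -0.04 ± 0.07 against HGF with PD (adjusted p = 0.648) and fell by 0.33 ± 0.07 with UO (adjusted p = 0.00165).

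MCM5 rose further when a compound was added. It read 9.82, 9.97, 9.77 and 10.11 in Control, 10.60, 10.54, 10.29 and 10.37 with HGF, 11.43, 11.05, 11.24 and 11.29 with HGF + PD, and 10.82, 11.17 and 10.87 with HGF + UO. The groups stepped upward without overlap from Control to HGF to the compound groups, which overlapped each other. The rise with HGF was 0.53 ± 0.10 (adjusted p = 5.22e-04), with a further 0.81 ± 0.10 for PD (adjusted p = 1.11e-05) and 0.50 ± 0.11 for UO (adjusted p = 0.00155). MCM6 and MCM7 also rose from HGF with PD, by 0.19 and 0.34. With UO, MCM2, MCM3, MCM6 and MCM7 gave differences from HGF of -0.27 to -0.02 that did not pass. In both compound groups MCM2 to MCM6 remained above Control, MCM7 with PD only (0.63, against 0.15 with UO, adjusted p = 0.311).

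The factors that switch the loaded helicase on all rose with HGF, by 0.88 to 2.12, and then parted. CDC45 read 5.83, 5.83, 5.81 and 5.37 in Control, 7.73, 8.04, 7.69 and 7.87 with HGF, 6.96, 6.48, 6.67 and 6.55 with HGF + PD, and 6.04, 6.53 and 6.50 with HGF + UO. The compound groups lay between Control and HGF and touched neither. CDC45 rose by 2.12 ± 0.14 (4.36-fold, adjusted p = 1.01e-08) and fell by 1.16 ± 0.14 with PD and 1.47 ± 0.15 with UO (adjusted p = 5.90e-06 and 1.31e-06), the widest fall in the set with UO.

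GINS4, a partner of CDC45 in the active helicase, did not fall with PD. It read 6.94, 6.69, 6.80 and 6.70 in Control, 8.41, 8.61, 8.34 and 8.43 with HGF, 8.88, 8.59, 8.92 and 8.92 with HGF + PD, and 8.03, 8.30 and 8.37 with HGF + UO. The HGF + PD arrays were mostly the highest, with replicate 2 just under the top HGF array. GINS4 rose by 1.66 ± 0.10 with HGF (adjusted p = 2.57e-09), rose again by 0.38 ± 0.10 with PD (adjusted p = 0.00391) and read -0.22 ± 0.11 against HGF with UO (adjusted p = 0.104). GINS1 and GINS2 rose by 0.88 and 0.97 with HGF, and GINS2 fell by 0.57 with UO. MCM10, which helps the helicase fire, rose by 1.62 ± 0.27, but its Control arrays were scattered from 5.67 to 7.34, and its differences from HGF of -0.49 with PD and -0.55 with UO did not pass.

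The sliding clamp PCNA, which tethers polymerases to DNA, read 10.01, 9.96, 9.88 and 9.92 in Control, 10.73, 11.09, 10.91 and 10.74 with HGF, 11.66, 11.61, 11.63 and 11.71 with HGF + PD, and 11.12, 11.18 and 11.23 with HGF + UO. No group overlapped another: the order ran from Control through HGF and HGF + UO to HGF + PD. PCNA rose by 0.93 ± 0.07 with HGF (adjusted p = 2.90e-08), by a further 0.78 ± 0.07 with PD (adjusted p = 1.82e-07) and by a further 0.31 ± 0.07 with UO (adjusted p = 0.00271).

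Subunits of the clamp loader, which opens PCNA around DNA, did not move as one. RFC3 read 8.21, 8.21, 8.09 and 8.20 in Control, 10.16, 10.44, 10.15 and 10.16 with HGF, 9.90, 9.64, 9.99 and 9.97 with HGF + PD, and 9.40, 9.55 and 9.49 with HGF + UO. The 4 groups did not overlap, with HGF at the top. It rose by 2.05 ± 0.08 with HGF (4.14-fold, adjusted p = 5.29e-11) and fell by 0.35 ± 0.08 with PD and 0.75 ± 0.09 with UO (adjusted p = 0.00206 and 5.50e-06).

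RFC4 separated the compounds most clearly of the loader subunits. It read 10.23, 10.28, 10.15 and 10.33 in Control, 11.44, 11.49, 11.33 and 11.46 with HGF, 11.37, 11.13, 11.30 and 11.44 with HGF + PD, and 10.78, 10.68 and 10.73 with HGF + UO. The HGF + PD arrays overlapped HGF, while the HGF + UO arrays fell midway to Control. The rise with HGF was 1.18 ± 0.06 (adjusted p = 1.04e-09), and the difference from HGF was -0.12 with PD (adjusted p = 0.132) and -0.70 with UO (adjusted p = 7.72e-07). RFC2 and RFC5 rose by 0.55 and 0.31 with HGF and by a further 0.24 each with PD, and read -0.01 and -0.06 against HGF with UO. RFC1, the large subunit, gave 0.17 with HGF (adjusted p = 0.0584) and fell from HGF by 0.42 with PD and 0.38 with UO. With PD it was below Control by 0.25 (adjusted p = 0.0149), the sole gene of the 45 called lower in that comparison. Its 4 dimmer probe sets gave -0.47 to 0.33 for the same difference. Against HGF they gave -0.46 to 0.22 with PD, 1 of them called (-0.46, adjusted p = 0.00284), and -0.24 to 0.29 with UO, none called, so each of these falls depends on the probe set.

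Among the polymerases and primase, 7 of 9 rose with HGF, POLD3 fell and PRIM1 did not pass (-0.04, adjusted p = 0.740). POLE2, the second subunit of polymerase epsilon, read 8.75, 8.48, 8.45 and 8.75 in Control, 10.46, 10.60, 10.48 and 10.59 with HGF, 9.91, 9.54, 9.72 and 9.95 with HGF + PD, and 9.37, 9.32 and 9.28 with HGF + UO. The 4 groups did not overlap. POLE2 rose by 1.93 ± 0.09 (3.80-fold, adjusted p = 3.35e-10) and fell by 0.75 ± 0.09 with PD and 1.21 ± 0.10 with UO (adjusted p = 7.18e-06 and 1.25e-07). POLA2, the regulatory subunit of polymerase alpha, followed with 1.85 with HGF, -0.35 with PD and -0.75 with UO. The catalytic subunits rose less with HGF: POLA1 by 0.34, POLD1 by 0.50 and POLE by 0.65.

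POLD3, an accessory subunit of polymerase delta, read 8.08, 8.07, 8.07 and 7.90 in Control, 7.58, 7.95, 7.53 and 7.63 with HGF, 8.17, 8.14, 8.42 and 8.49 with HGF + PD, and 8.16, 8.60 and 8.05 with HGF + UO. HGF replicate 2 overlapped the Control arrays, and all 7 arrays with a compound lay above all HGF arrays. The fall with HGF was -0.36 ± 0.13 (adjusted p = 0.0257), and this call was lost without Control replicate 1 (-0.34), 2 (-0.34) or 3 (-0.35), without HGF replicate 1 (-0.33), 3 (-0.31) or 4 (-0.34), and under quantile normalisation (-0.30), median centring (-0.31) or an offset of 16 (-0.33). A dimmer POLD3 probe set fell by 0.85 (adjusted p = 4.26e-05). Against HGF, POLD3 was higher by 0.63 ± 0.13 with PD and 0.60 ± 0.14 with UO (adjusted p = 5.86e-04 and 0.00172). The primase subunits also stood above HGF with PD, PRIM1 by 0.54 and PRIM2 by 0.48, and PRIM1 was above it by 0.34 with UO. POLD2, the remaining delta subunit, rose by 0.54 with HGF on its brightest probe set, but the other 3 gave -0.06 to 0.07.

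The single-strand binding complex RPA, which coats unwound DNA, was divided by subunit. RPA3, the smallest subunit, read 13.07, 13.09, 13.06 and 13.12 in Control, 12.53, 12.63, 12.60 and 12.56 with HGF, 13.71, 13.61, 13.71 and 13.66 with HGF + PD, and 13.65, 13.68 and 13.61 with HGF + UO. HGF arrays were the lowest, and both compound groups were above Control and overlapped each other. RPA3 fell by 0.51 ± 0.03 with HGF (adjusted p = 4.79e-09), and stood above HGF by 1.09 ± 0.03 with PD and 1.07 ± 0.03 with UO (adjusted p = 1.96e-12 and 6.56e-12). Against Control it was higher by 0.59 with PD and by 0.56 with UO. A dimmer RPA3 probe set fell by 0.55 with HGF and stood 1.02 and 1.03 above HGF with PD and UO.

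RPA2, the middle subunit, read 8.22, 8.27, 8.17 and 8.41 in Control, 9.34, 9.56, 9.21 and 9.20 with HGF, 9.72, 9.57, 9.62 and 9.81 with HGF + PD, and 8.98, 9.06 and 9.21 with HGF + UO. The HGF + PD arrays were all the highest, and the HGF + UO arrays reached the lower HGF arrays. RPA2 rose by 1.06 ± 0.09 with HGF (adjusted p = 1.03e-07) and by 0.35 more with PD (adjusted p = 0.00346). With UO it fell by 0.25 from HGF (adjusted p = 0.0418), a call lost without HGF replicate 1 (-0.24) or 2 (-0.17), without HGF + UO replicate 1 (-0.19) or 2 (-0.23), and under quantile normalisation (-0.23) or an offset of 16 (-0.24). RPA1, the large DNA-binding subunit, rose by 0.61 with HGF and fell from it by 0.53 with UO, which left it 0.08 above Control (adjusted p = 0.604).

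FEN1, the nuclease that trims Okazaki fragments, read 8.93, 8.76, 8.65 and 8.77 in Control, 9.66, 9.87, 9.53 and 9.40 with HGF, 9.97, 10.01, 10.00 and 10.12 with HGF + PD, and 9.65, 9.81 and 9.75 with HGF + UO. The HGF + PD arrays were the highest and the HGF + UO arrays fell within the HGF range. FEN1 rose by 0.84 ± 0.09 with HGF (adjusted p = 1.45e-06), by a further 0.41 with PD (adjusted p = 0.00117), and read 0.12 against HGF with UO (adjusted p = 0.333).

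Enzymes that supply deoxynucleotides rose with HGF apart from RRM2. TYMS, which makes thymidylate, read 11.48, 11.62, 11.57 and 11.54 in Control, 12.51, 12.48, 12.34 and 12.30 with HGF, 13.05, 12.85, 12.86 and 12.96 with HGF + PD, and 12.69, 12.61 and 12.69 with HGF + UO. The groups did not overlap, and HGF + PD was at the top. It rose by 0.85 ± 0.06 with HGF (adjusted p = 1.00e-08), then by 0.52 ± 0.06 with PD and 0.26 ± 0.06 with UO (adjusted p = 1.82e-06 and 0.00231). TK1, the salvage kinase for thymidine, rose by 1.42 with HGF and by 0.49 more with PD, and RRM1, the large subunit of ribonucleotide reductase, rose by 0.75.

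RRM2, the small subunit of the same reductase, fell while its partner rose. It read 13.54, 13.49, 13.49 and 13.51 in Control, 12.92, 13.19, 12.89 and 12.83 with HGF, 13.44, 13.44, 13.59 and 13.54 with HGF + PD, and 13.16, 13.23 and 13.28 with HGF + UO. HGF + PD arrays overlapped Control, and HGF + UO lay between Control and HGF, overlapping HGF replicate 2. RRM2 fell by 0.55 ± 0.06 with HGF (adjusted p = 4.05e-06). It stood above HGF by 0.55 with PD and 0.27 with UO (adjusted p = 4.43e-06 and 0.00496), and remained 0.28 below Control with UO (-0.28 ± 0.07, adjusted p = 0.00888), the sole gene of the 45 called lower there. A dimmer RRM2 probe set fell by 0.70 with HGF.

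Chromatin assembly factor 1 deposits histones behind the fork, and both measured subunits rose with HGF. CHAF1B read 6.29, 6.46, 6.45 and 6.73 in Control, 7.09, 7.16, 7.09 and 7.21 with HGF, 7.29, 7.18, 7.39 and 7.30 with HGF + PD, and 6.98, 6.94 and 7.06 with HGF + UO. All treated arrays were above Control, and the HGF + UO arrays lay below every HGF and HGF + PD array. CHAF1B rose by 0.66 ± 0.08 with HGF (adjusted p = 6.54e-06) and differed from HGF by 0.15 with PD and -0.14 with UO (adjusted p = 0.127 and 0.190). A dimmer CHAF1B probe set was called higher than HGF with PD (0.35, adjusted p = 0.0397) and read -0.16 with UO (adjusted p = 0.387). CHAF1A rose by 1.10 ± 0.24, with Control arrays spread from 4.44 to 5.86.

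With PD added to HGF, replication genes were called both ways. Against HGF alone, 18 of 45 were higher and 11 lower, and 16 did not pass. That is 40.0% higher and 24.4% lower, where 30.3% of all probe sets were higher and 25.1% lower. The share lower was thus near that of all probe sets. The median difference was 0.10 (0.02 with each array centred on its median, when 15 were higher and 14 lower), against -0.01 over all probe sets. The higher genes were ORC3, MCM5, MCM6, MCM7, GINS4, PCNA, RFC2, RFC5, POLD1, POLD3, PRIM1, PRIM2, RPA2, RPA3, FEN1, RRM2, TYMS and TK1. The lower ones were ORC1, ORC2, ORC4, ORC5, CDC6, CDT1, CDC45, RFC1, RFC3, POLA2 and POLE2. Against a minimum of 1.5-fold, 3 passed higher and 3 lower, where 9.10% and 7.62% of all probe sets did. Neither count stood above the share over all probe sets. By role, 4 of 6 origin recognition genes and 2 of 3 licensing genes were lower, and 3 of 4 nucleotide supply genes were higher with none lower.

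Adding UO to HGF gave more falls. Against HGF alone, 8 of 45 were higher, 18 lower and 19 not called, where 27.2% of all probe sets were higher and 25.2% lower. The median difference was -0.17, against 0.00 over all probe sets. Against a minimum of 1.5-fold, 2 passed higher and 5 lower, where 7.84% and 7.75% of all probe sets did. Higher were ORC3, MCM5, PCNA, POLD3, PRIM1, RPA3, RRM2 and TYMS. Lower were ORC1, ORC2, ORC4, ORC5, ORC6, CDC6, CDT1, GMNN, MCM4, CDC45, GINS2, RFC1, RFC3, RFC4, POLA2, POLE2, RPA1 and RPA2. This comparison and the one with PD use the same 4 HGF arrays, so the lists share whatever is particular to those arrays and their overlap is not given as a result.

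**Figure D3:**
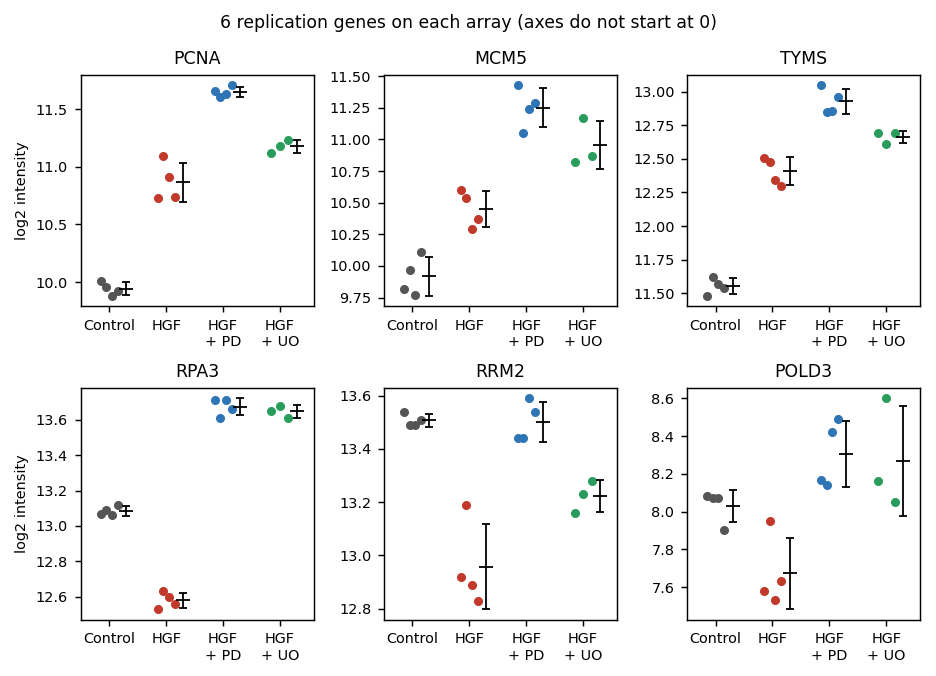
Log2 intensity of PCNA, MCM5, TYMS, RPA3, RRM2 and POLD3 on each of 15 arrays (points) by group, with the group mean and SD (black). In PCNA and TYMS the 4 groups do not overlap and HGF + PD is highest, while in RPA3 the HGF arrays (mean 12.58) lie below Control (13.09).

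Set against Control, most replication genes were still raised in the presence of a compound. With HGF + PD, 37 of 45 were higher and 1 lower, where 20.2% of all probe sets were higher and 14.3% lower. Their median was 0.91 above Control (1.00 without HGF + PD replicate 2), against -0.02 over all probe sets. With HGF + UO, 32 were higher and 1 lower, where 11.9% of all probe sets were higher and 10.3% lower. That median was 0.65 above Control, against -0.01. The single lower gene with UO was RRM2, and 2 genes were called lower without HGF + UO replicate 1. Against a minimum of 1.5-fold, 21 genes passed higher with PD and 10 with UO, where 2.16% and 1.22% of all probe sets did, and 0 passed lower with either, where 0.952% and 0.634% did. ORC1 was still higher than Control by 3.45 on the log2 scale with PD and by 2.78 with UO. Next with PD came GINS4 (4.12-fold), TK1 (3.77-fold), ORC6 (3.76-fold) and PCNA (3.27-fold). Genes that did not pass in either compound group were ORC2, ORC3, ORC4, ORC5, POLA1 and POLD3. The 3 comparisons with Control use the same Control arrays.

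**Figure D4:**
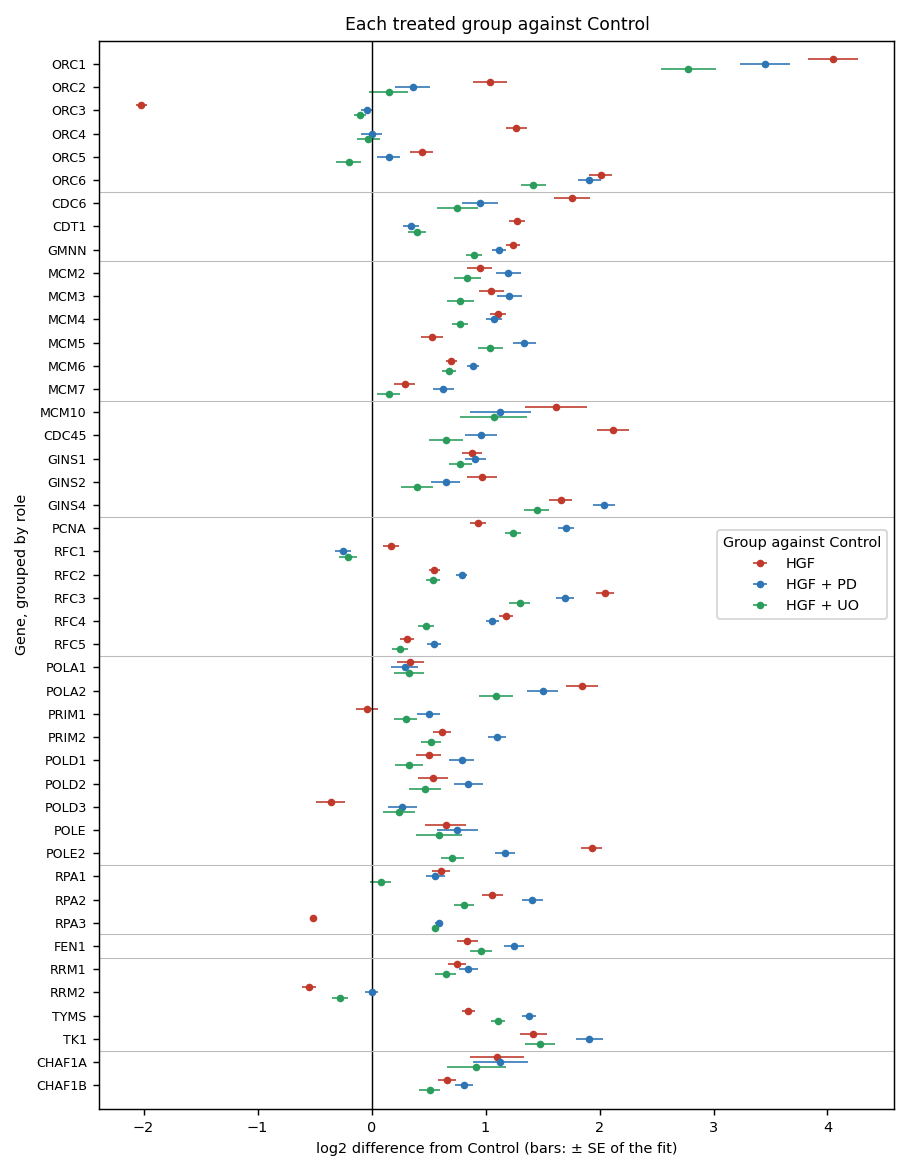
Log2 difference from Control (x axis, with the SE of the fit) for 45 replication genes (y axis, by role) with HGF (red), HGF + PD (blue) and HGF + UO (green). ORC1 is farthest right at 4.05, 3.45 and 2.78, and ORC3 is at -2.02 with HGF but at -0.04 and -0.10 with the compounds.

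The compound groups were also compared with each other. The difference itself uses neither the HGF nor the Control arrays, but the variance behind its test comes from all 15. Of 45 genes, 21 were lower with HGF + UO than with HGF + PD and 0 were higher (limma), where 6.66% of all probe sets were lower and 2.55% higher. At an unadjusted p under 0.05, 29 were lower and 0 higher, where 3979 of all 24904 probe sets were lower and 2063 higher. The median difference was -0.29, against -0.00 over all probe sets. For 27 genes every HGF + UO array lay below every HGF + PD array, and for 0 every one lay above. Over all 24904 probe sets kept, 3279 lay below in this way and 2026 above. The differences were small: 0 passed a minimum of 1.5-fold in either direction (limma treat), where 0.0522% of all probe sets passed lower and 0.00402% higher. The GAPDH 3′ over 5′ ratio, 1.25 ± 0.02 with UO and 1.08 ± 0.03 with PD (log2, SD, n = 3 and 4), also differed between these groups, and its part in the result was not tested. Of all probe sets called between the groups, 27.7% were higher with UO, and this split was 41.4% under quantile normalisation and 39.0% with median centring. With those scalings the replication genes gave 15 and 16 lower and 0 higher each. The count of 21 depends on the fit and on few arrays: it was 11 with only the 7 arrays of these groups in the fit, 11 without HGF + PD replicate 4, 12 without HGF + UO replicate 1 and 11 without HGF + UO replicate 2, with 0 higher each time.

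The widest of these differences past the threshold were in GINS4, RPA2 and RFC4. GINS4 was lower with UO by 0.60 ± 0.11 (95% interval -0.82 to -0.37, adjusted p = 0.00375), on arrays at 8.03 to 8.37 against 8.59 to 8.92. RPA2 was lower by 0.60 ± 0.09 (-0.80 to -0.39, adjusted p = 0.00203). RFC4 was lower by 0.58 ± 0.07 (-0.73 to -0.43, adjusted p = 3.77e-04), the lowest adjusted p of the 45 genes here. PRIM2 followed at -0.57, PCNA, RPA1, MCM7 and ORC6 each at -0.48, and POLE2 and POLD1 each at -0.46. The remaining called genes were TK1, MCM3, RFC3, CHAF1B, MCM4, RFC5, RRM2, TYMS, RFC2, GMNN and MCM6, at -0.43 to -0.21.

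Among the 19 genes named by rule, several of the smaller calls depended on 1 array. That of GMNN (-0.22, adjusted p = 0.0493) was lost without any 1 of 6 of the 7 arrays (values from -0.26 to -0.19), HGF + PD replicate 2 being the exception. The other GMNN probe set read 0.13 (adjusted p = 0.478) and the mean of both -0.05, so for GMNN the direction depends on the probe set. The call of CHAF1B (-0.30) was lost without the same arrays (-0.33 to -0.26), and its dimmer probe set read -0.51 (adjusted p = 0.0434). MCM4 (-0.29) was lost without HGF + PD replicate 3 (-0.28) or 4 (-0.26) or HGF + UO replicate 1 (-0.25) or 3 (-0.30). RRM2 (-0.28) was lost without HGF + PD replicate 3 (-0.25) or 4 (-0.27) or HGF + UO replicate 1 (-0.25) or 2 (-0.29). TYMS (-0.26) was lost without HGF + PD replicate 4 (-0.25) or HGF + UO replicate 2 (-0.23), and its dimmer probe sets gave -0.15 and 0.07, neither called. RFC3 (-0.40) was lost without HGF + UO replicate 1 (-0.35). Called genes not named by rule were not followed singly. Among them, TK1 (-0.43, adjusted p = 0.0499), MCM6 (-0.21, adjusted p = 0.0426) and MCM3 (-0.43, adjusted p = 0.0391) were close to the threshold. The other kept MCM3 probe set read -0.03 (adjusted p = 0.826).

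For other genes the groups did not differ past the threshold on the chosen probe set. The intervals, which are not adjusted for the number of genes, say how large a difference could have been missed on that probe set. RPA3 differed by -0.02 (95% interval -0.10 to 0.05), ORC3 by -0.06 (-0.17 to 0.04), ORC4 by -0.03 (-0.25 to 0.19) and CDT1 by 0.05 (-0.12 to 0.22). The dimmest ORC3 probe set was called lower with UO (-0.30, adjusted p = 0.0321), outside the interval of the chosen one. A dimmer CDT1 probe set was lower with UO by 0.79 (adjusted p = 0.00317), and the mean over CDT1 probe sets gave -0.37. CDC6 differed by -0.19 (-0.57 to 0.19), while its dimmer probe sets were called lower, at -0.74 and -0.99 (adjusted p = 0.00641 and 0.0192). MCM5 read -0.30 (adjusted p = 0.115), and its dimmer probe sets were called at -0.42 and -0.61 (adjusted p = 0.0193 and 0.00196). A dimmer probe set was also called lower for ORC5 (-0.49, adjusted p = 0.0333) and for RRM1 (-0.26, adjusted p = 0.0240). ORC1 had the widest difference of all, -0.67 (-1.19 to -0.16), and did not pass (adjusted p = 0.0986). Because dose and compound changed together, the part of each cannot be told apart.

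**Figure D5:**
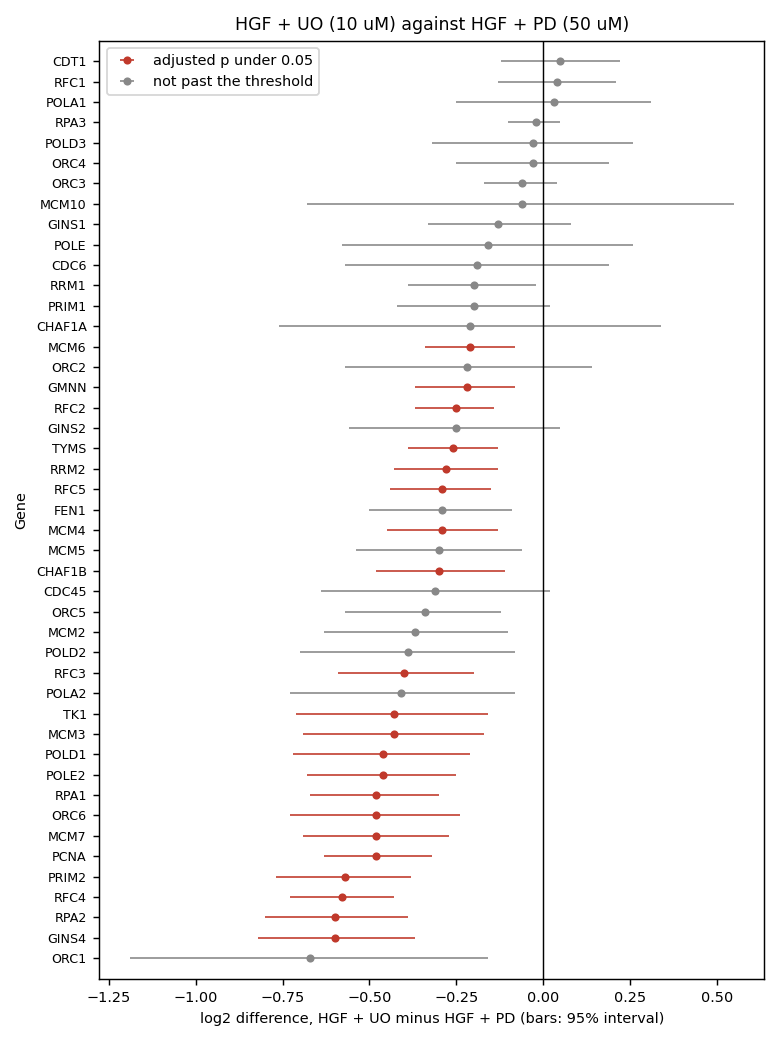
Difference between HGF + UO (10 uM) and HGF + PD (50 uM) in log2 intensity (x axis, with 95% intervals) for 45 replication genes (y axis, sorted). The 21 genes past the threshold (red) all lie left of 0, the other 24 (grey) run from -0.67 to 0.05.

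Different probe sets of a gene were compared by their calls. An uncalled probe set could read the other way, as for GMNN in UO against PD (-0.22 on the brighter and 0.13 on the other). Of 45 measured genes, 30 had more than 1 probe set kept, and in none of the 6 comparisons was a gene called both higher and lower. All probe sets of a gene gave the same call in 28 of the 30 genes for HGF against Control, the exceptions being POLD1 and POLD2. The figure was 22 for PD against HGF, 24 for UO against HGF, 26 for PD against Control, 28 for UO against Control and 17 for UO against PD. MCM3 was called higher with HGF by both of its kept probe sets, but by 1.05 on the brighter and 0.15 on the other. RFC5 showed the opposite, with 0.31 on the brighter and 0.93 on the other.

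Genes around the replication fork were read from 6 further lists, whose counts stand against 26.3% of all probe sets higher and 29.2% lower with HGF. Among E2F factors, pocket proteins and S phase kinases, 9 of 16 measured genes rose with HGF and 3 fell. CCNA2, the S phase cyclin, rose by 2.65, DBF4, the activator of the CDC7 kinase, by 1.54, and CDC7 by 1.25. TFDP2, a dimer partner of E2F proteins, rose by 2.55 ± 0.07 and then fell from HGF by 2.53 with PD and 2.89 with UO. Its means of 4.27 in Control, 4.29 with HGF + PD and 3.92 with HGF + UO were close to the filter level. The sizes of these changes are limited by the background estimate. Genes that act in the repression of cell cycle genes went both ways: E2F5, RBL2 and E2F6 fell by 0.95, 0.82 and 0.29, while the pocket proteins RB1 and RBL1 rose by 0.46 and 0.39. SKP2, part of the ligase that degrades CDKN1B, read -0.10 with HGF (adjusted p = 0.579) and was higher than HGF by 1.15 with PD and 0.58 with UO. E2F1, E2F3, E2F7, E2F8 and TFDP1 were under the filter.

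Of 14 fork protection and checkpoint genes measured, 9 rose with HGF and 0 fell (limma). At an unadjusted p under 0.05, 0 fell as well, where 7789 of all 24904 probe sets did. CDC25B, the phosphatase that activates CDK1, rose by 4.09 ± 0.20 and then gave differences from HGF of -4.51 with PD and -4.41 with UO, which put it at group means of 4.29 and 4.39 against 4.71 in Control. WEE1, the kinase that opposes it, rose by 1.07 and fell by 1.35 and 1.58. DNA2, a nuclease of long flaps, rose by 2.32 and differed from HGF by 0.02 with PD and -0.90 with UO. Its Control mean was 3.47, under the filter level, so the size of its rise is limited by the background estimate.

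Histone chaperones and maintenance methylation genes had 4 of 10 higher and 2 lower with HGF. HELLS, a chromatin remodeller, and ASF1B, a histone chaperone, rose by 1.22 and 1.05 with HGF and by 0.88 and 0.58 more with PD. NASP and HAT1, which handle new histones, read 0.04 and -0.10 with HGF and were higher than HGF by 0.83 and 0.68 with PD. DNMT1, which copies DNA methylation, rose by 1.31 and fell by 0.73 with PD and 0.87 with UO. Of 9 further nucleotide enzymes, 6 rose with HGF and RRM2B, the p53-regulated reductase subunit, fell by 0.51. DCK, the salvage kinase for deoxycytidine, rose by 3.44 ± 0.15 and fell by 1.11 with PD and 2.18 with UO.

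Of 11 repair genes that work at the fork, 8 rose with HGF and PARP1 fell by 0.46. FANCI, FANCD2 and BRCA2 rose by 1.93, 1.74 and 1.59, and against HGF they read -0.02, -0.10 and 0.11 with PD and fell by 0.65, 0.47 and 0.38 with UO. All 4 measured proliferation markers rose with HGF, AURKA by 2.59, TOP2A by 2.04, BIRC5 by 1.75 and CDK1 by 1.61, and all 4 stayed above Control with either compound, by 1.28 to 2.20. Between the compound groups, where 6.66% of all probe sets were lower with UO, each of the 6 lists had 0 genes higher with UO (limma). The lower counts, several of them only 1 or 2 genes, were 5 of 16 for E2F and kinases, 2 of 14 for fork protection, 4 of 10 for histone chaperones, 3 of 9 for nucleotide enzymes, 5 of 11 for repair and 1 of 4 for proliferation markers. At an unadjusted p under 0.05, 1 histone chaperone gene was higher with UO and no gene of the other 5 lists was. Of all 24904 probe sets, 2063 were higher by that measure.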

How the data were processed

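Biotin-labelled cRNA from 15 MDCK samples in 4 groups was hybridised to Affymetrix canine arrays. The deposited table holds linear intensities, 1 per probe set, for which the submitters' processing notes name GCRMA. No version, setting or genome build is stated for it. GCRMA subtracts a background estimated from probe sequence and compresses dim probe sets.

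Values were put on the log2 scale without further scaling. The 111 control probe sets (AFFX) were removed, and probe sets with log2 of at least 4 on at least 3 of 15 arrays were kept (24904 of 43035). Gene symbols came from the platform annotation (29254 probe sets with 1 symbol, 439 with several, not named, and 13231 unlisted), and 0 symbols changed when updated through Entrez identifiers. A linear model with 1 mean per group was fitted to all 15 arrays with limma 3.58.1 (lmFit, eBayes with trend) in R 4.3.3, and every adjusted p is Benjamini-Hochberg over 24904 probe sets, threshold 0.05. Changes are log2 differences ± SE of the fit. The fit was tested on simulated data. Depth does not apply to arrays, and their number limits precision.

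The members, lists and rules were chosen with earlier results of these data known. Values on every array are given for PCNA, chosen after its values were seen, and for 19 genes by rule: the member with the lowest adjusted p with HGF in each role, the 3 largest changes each way past the threshold in each of 4 comparisons (HGF, each compound against HGF, and UO against PD), and every member lower with HGF. Other genes, and those of the further lists, were picked as examples after their values were seen. Same-numbered arrays of different groups correlated at -0.25 to 0.41 over 21 pairs in their deviations from group means, with 8 pairs over 0.1, so the replicate numbers were not taken to pair the arrays. Replicates of a group differed by an SD of 0.160 to 0.269 over probe sets, and no arrays were near-identical. Alternatives covered the filter, scaling, offset, choice of probe set, variance model, arrays in the fit, array weights, a replicate block, a minimum change and each array left out. Promoter and protein sequences were not used here.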

Additional observations from a re-analysis of the deposited data

Results flagged for a closer look

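In groups of 4 arrays, 1 array was marked when its gap to the nearest other array exceeded Dixon's 95% critical share of the group's whole range. This was applied to 19 genes and to the median deviation of the replication genes, 60 groups of arrays in all, and marked 7, where chance marks about 1 in 20. The HGF + UO group has 3 arrays and was not tested.

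HGF replicate 2 was the highest HGF array in 3 of the 7 cases. GMNN was 10.86 there against 10.70 to 10.72 on the other HGF arrays, RFC3 was 10.44 against 10.15 to 10.16, and the median deviation of the 45 replication genes from Control was 0.96 against 0.80 to 0.81. Without this array the count of genes raised by HGF was 38, against 39 with it.

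In Control, replicate 4 was lowest for CDC45 (5.37 against 5.81 to 5.83) and for POLD3 (7.90 against 8.07 to 8.08), and replicate 3 was lowest for RFC3 (8.09 against 8.20 to 8.21). In HGF + PD, replicate 2 was lowest for GINS4 (8.59 against 8.88 to 8.92). The rises of CDC45 and RFC3 with HGF, 2.12 and 2.05, are far wider than these gaps.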

How the results depend on the processing

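Counts and medians over the 45 genes were recomputed under 13 alternatives and with each array left out. Median centring moved the median for PD against HGF to 0.02, and an offset of 16 moved that for UO against Control to 0.55. With the mean of all probe sets of a gene, 0 genes were lower for PD against Control. With only the 2 groups in the fit, 11 genes were lower for UO against PD. For UO against Control, 2 genes were lower with array weights and 2 with the replicate block, while without the block it was 1. In 14 of 42 cases an array correlated best with its own number in another group. Such a count cannot show that the arrays are unpaired, and the replicate numbers were not taken to pair them. With the replicate block no other count of genes moved by over 1.5 times.

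Requiring a change of over 1.5-fold (limma treat) left 24 higher and 1 lower for HGF against Control, 3 and 3 for PD against HGF, 2 and 5 for UO against HGF, 21 and 0 for PD against Control, 10 and 0 for UO against Control, and 0 lower for UO against PD.

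With 1 array left out, HGF against Control gave 38 to 39 higher and 3 to 4 lower, with a median of 0.83 to 0.91. PD against HGF gave 17 to 19 higher, 8 to 11 lower and 0.07 to 0.16. UO against HGF gave 7 to 8 higher, 17 to 19 lower and -0.22 to -0.13. PD against Control gave 37 to 38 higher, 1 lower each time and 0.86 to 1.00. UO against Control gave 29 to 33 higher, 1 to 2 lower and 0.58 to 0.67. UO against PD gave 0 higher each time, 11 to 20 lower and -0.31 to -0.27.

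For the 19 genes named by rule (PCNA is not among them), 114 differences gave 2337 values under other settings. Of these, 2206 kept the call, 116 lost it, 14 gained it and 1 turned. A difference uncalled both ways counted as kept, whatever its sign, so changes of sign among uncalled differences were not counted. The 1 that turned was CDT1 in UO against PD. It read -0.37 with the mean of its probe sets, where the chosen probe set gave 0.05. The call was kept in every setting for 57 of the 114 differences. Dim genes in Control, such as ORC1, are limited by the background estimate.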
